A study of Mus musculus with 64 samples.

Results

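Expression of 10 circadian clock genes was followed through 64 mouse heart libraries: the activators Arntl (also called Bmal1), Clock and Npas2, the repressors Per1, Per2 and Per3, the clock-driven transcription factors Dbp and Tef, and the nuclear receptors Nr1d1 and Nr1d2. The genes are named members of the clock, chosen with earlier results of these data known, and are 10 of the 16913 genes in the gene count table; all 10 passed the filter on low counts. The heart libraries came from C57BL/6J mice that carried a mutant cardiac troponin T transgene, cTnT-delta160E (TG), used as a model of hypertrophic cardiomyopathy, or did not carry it (nTG). Mice were sedentary (Sed) or had run high intensity interval training (HIIT) on a treadmill for 6 weeks, with 3 sessions of 31 min a week, each with 4 intervals at 85% and 4 at 50% of the average speed that the group had reached in a graded test. The 8 groups were 7 sedentary nTG males, 8 trained nTG males, 9 sedentary TG males, 8 trained TG males, 8 sedentary nTG females, 10 trained nTG females, 8 sedentary TG females and 6 trained TG females. These sizes come from the sample labels; the series text gives 7 to 9 per group, and the conflict could not be settled here. The labels give each library a biological replicate number but give neither the age of the mice, the promoter of the transgene, the light cycle nor the hour at which hearts were taken.

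The clock is a transcriptional feedback loop that runs in nearly every cell of the body. ARNTL pairs with CLOCK or its relative NPAS2, binds E-box motifs and activates the Per, Nr1d, Dbp and Tef genes; PER proteins, together with CRY proteins, then block that activator. NR1D1 and NR1D2 (REV-ERB alpha and beta) repress Arntl and Npas2, while DBP and TEF activate genes that carry D-box motifs. Transcripts of Arntl and Npas2 therefore peak at nearly the opposite time of day from those of the E-box targets, and in the heart the loop sets daily rhythms of metabolism and ion channels. A difference in the hour of sampling would shift all of these transcripts along that cycle together, so the size and direction of each gene's difference are given beside those of the others.

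Promoter windows of 250 bases before each start site were read from RefSeq (GRCm38.p6), which held 14 windows for 9 of the 10 genes. They were searched on both strands for the E-box CACGTG, the D-box TTANGTAA and the letters TAGGTCA, the core bound by NR1D1 and NR1D2; the 3 motifs share no overlapping match in these windows. The 4 windows shown are those outside annotated exons (but for 1 base at Per1) in which a motif was found, and Arntl for comparison; capitals mark the matched motif.
Per1, chr11:69098699-69098948, plus strand: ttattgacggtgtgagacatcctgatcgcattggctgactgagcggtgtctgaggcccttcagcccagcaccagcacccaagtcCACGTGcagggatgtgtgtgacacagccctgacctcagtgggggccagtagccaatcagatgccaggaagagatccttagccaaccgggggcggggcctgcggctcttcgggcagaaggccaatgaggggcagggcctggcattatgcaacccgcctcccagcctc
Tef, chr15:81811164-81811413, plus strand: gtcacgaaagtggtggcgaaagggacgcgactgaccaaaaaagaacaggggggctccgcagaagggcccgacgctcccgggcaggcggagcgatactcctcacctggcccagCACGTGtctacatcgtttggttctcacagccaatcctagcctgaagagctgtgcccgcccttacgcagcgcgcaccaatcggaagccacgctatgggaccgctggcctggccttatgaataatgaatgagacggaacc
Per3, chr4:151044666-151044915, minus strand: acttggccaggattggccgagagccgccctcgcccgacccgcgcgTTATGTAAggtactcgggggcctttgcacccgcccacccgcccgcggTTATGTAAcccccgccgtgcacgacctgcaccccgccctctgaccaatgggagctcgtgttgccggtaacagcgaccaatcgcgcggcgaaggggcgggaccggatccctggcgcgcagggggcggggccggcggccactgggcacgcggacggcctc
Arntl, chr7:113207215-113207464, plus strand: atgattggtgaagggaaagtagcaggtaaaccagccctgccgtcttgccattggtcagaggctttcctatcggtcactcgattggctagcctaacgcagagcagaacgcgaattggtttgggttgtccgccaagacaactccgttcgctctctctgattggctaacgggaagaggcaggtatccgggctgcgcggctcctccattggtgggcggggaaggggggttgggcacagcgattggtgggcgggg
The E-box of Per1 lies at -166 to -161 from the start site, and that of Tef at -138 to -133. Per3 carries the D-box at -205 to -198 and again at -158 to -151. The Arntl window shown holds none of the 3 motifs. Over 32851 promoter windows of the same length, 6.02% hold the E-box, 2.06% the D-box and 2.23% the TAGGTCA core, and a match describes the letters only.

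Gene counts summed to between 34.6 M and 67.1 M per library (M stands for mega), and the lowest count of any of the 10 genes in any library was 175, for Npas2. The columns of the gene table did not follow their own names: read by name, 32 of 64 libraries had sex-linked transcripts opposite to their labelled sex. Each column of the companion lncRNA table was therefore given the gene column it correlated with best over 389 autosomal transcripts present in both tables. All 64 best matches were mutual, with Pearson r between 0.599 and 0.863 against at most 0.404 for the next best column, and 1 of them paired columns of the same name. After the join, 0 of 64 libraries contradicted their sex, and the transgene's host gene Tnnt2 read 2665 to 3428 CPM (counts per M reads of the library) in nTG and 6903 to 12001 CPM in TG libraries. Values below follow the joined labels and are CPM scaled by the trimmed mean of M values; the joined and by-name results differ, as given in the closing section. Heart muscle markers were high in every group, with 5 genes summing to between 89600 and 123000 CPM, and 0 of 4 skeletal muscle markers were in the table.

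In the activator arm, Arntl had lower group medians in trained than in sedentary hearts, and lower ones in TG than in nTG hearts of the same sex and training, while Clock varied least. Arntl (ENSMUSG00000055116) lies at chr7:113207465-113314126, Npas2 (ENSMUSG00000026077) at chr1:39193731-39363236 and Clock (ENSMUSG00000029238) at chr5:76209868-76304792 in GRCm38. In males, Arntl had a median of 20.8 CPM (8.06 to 26.8) in sedentary nTG hearts, 16.4 CPM (7.51 to 21.9) in trained nTG hearts, 12.7 CPM (4.72 to 23.0) in sedentary TG hearts and 8.21 CPM (4.74 to 20.2) in trained TG hearts. In females, the medians were 19.2 CPM (6.96 to 29.8), 11.2 CPM (4.50 to 26.6), 13.5 CPM (7.10 to 19.6) and 8.94 CPM (3.83 to 13.2) in the same order. The ranges of all 8 groups overlapped, and each group held hearts on both sides of 13.21 CPM, the median over all libraries, except the trained TG females, whose highest value was 13.16 CPM. In the edgeR model, Arntl was lower in TG than in nTG hearts over the mean of the 4 strata of sex and training, by a log2 fold change of -0.47 ± 0.16 (SE, adjusted p = 0.0169). For training over the same strata the value was -0.43 ± 0.16 (adjusted p = 0.112), which did not pass.

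Npas2, which can replace CLOCK as the partner of ARNTL, was lower in trained hearts. Sedentary nTG males had a median of 10.8 CPM (5.27 to 13.3) and trained nTG males 6.76 CPM (4.195 to 10.9), and sedentary TG males had 7.85 CPM (3.82 to 12.02) against 5.31 CPM (3.64 to 12.6) in trained TG males. In females the medians were 10.5 CPM (6.02 to 12.7) and 7.22 CPM (2.98 to 12.4) in sedentary and trained nTG hearts, and 8.98 CPM (5.18 to 10.3) and 6.20 CPM (3.65 to 8.93) in TG hearts. Sedentary and trained ranges overlapped in each of the 4 strata. The mean training difference was -0.45 ± 0.13 (log2, SE, edgeR adjusted p = 0.0285), and the mean genotype difference was -0.21 ± 0.13 (adjusted p = 0.187). Clock ranged between 52.3 and 88.5 CPM over all libraries, the narrowest of the 10 at 1.69 times from lowest to highest, with differences of -0.05 ± 0.04 for training and -0.03 ± 0.04 for genotype, neither past the threshold.

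**Figure D1:**
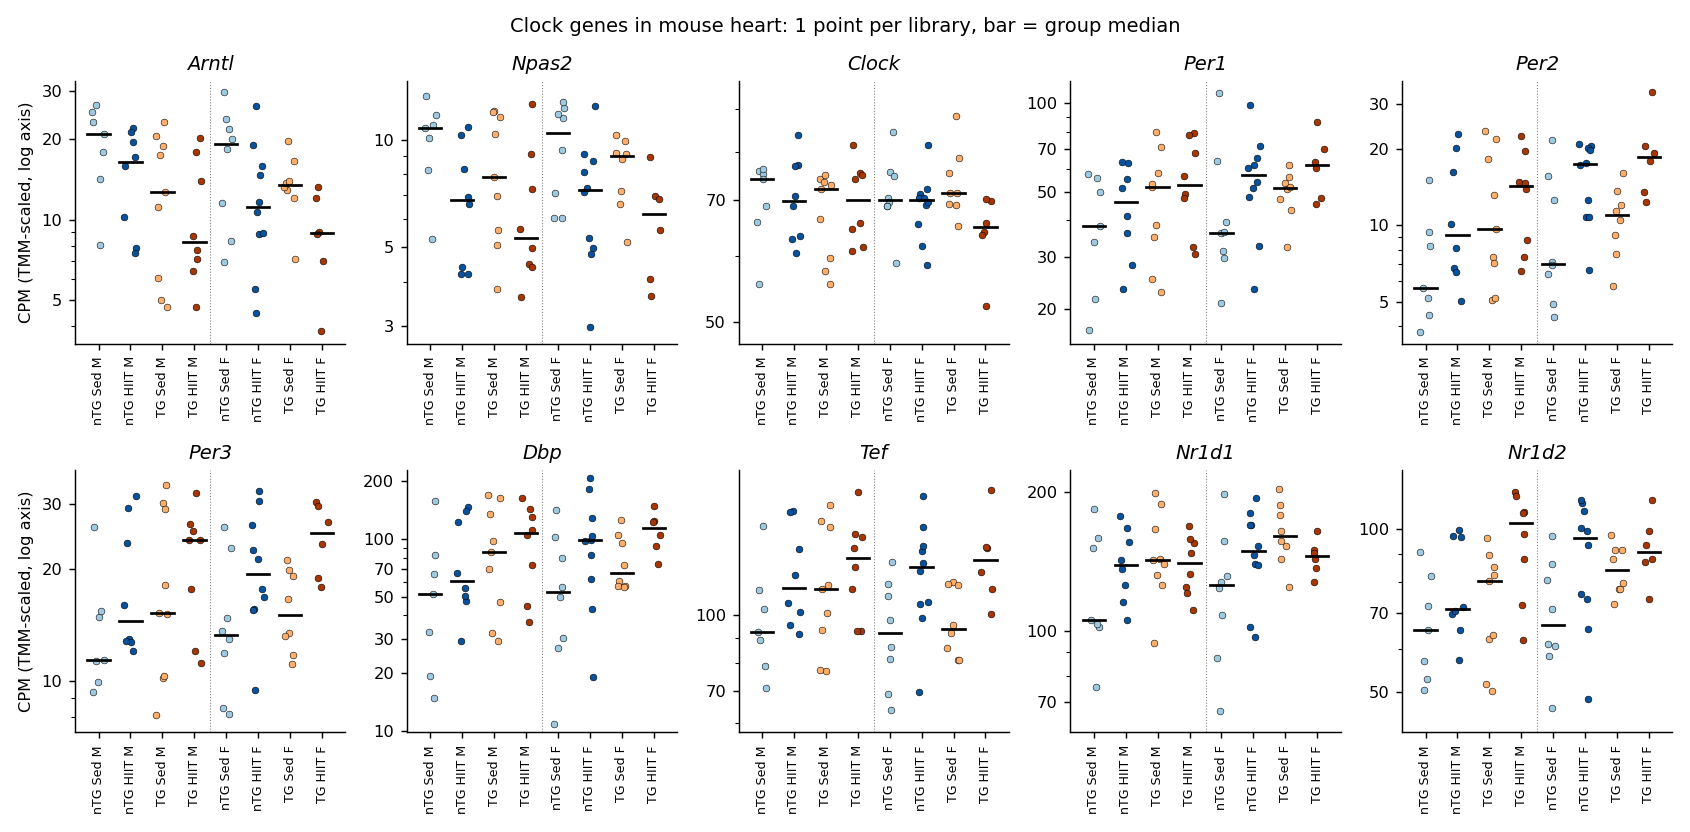
Expression of the 10 clock genes in CPM on a log axis, with 1 point per library and a bar at the median of each of the 8 groups; the dotted line separates males from females. Within each gene the points of all groups overlap, and for Arntl and Npas2 the trained groups have the lower medians, while for Per2, Per3, Dbp, Tef and Nr1d2 they have the higher ones.

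Among the repressors, Per2 and Per3 were higher in trained hearts, and Per1 lay in the same direction without passing the test. The 3 genes lie at chr11:69095217-69109960 (Per1, ENSMUSG00000020893), chr1:91415982-91459324 (Per2, ENSMUSG00000055866) and chr4:151003652-151044665 (Per3, ENSMUSG00000028957). Per2 had a median of 5.66 CPM (3.79 to 15) in sedentary and 9.12 CPM (5.01 to 22.9) in trained nTG males, and of 9.68 CPM (5.06 to 23.5) and 14.3 CPM (6.63 to 22.4) in TG males. In females, sedentary nTG hearts had 7.06 CPM (4.35 to 21.7) and trained ones 17.5 CPM (6.65 to 20.8), and TG hearts had 10.96 CPM (5.75 to 16.1) and 18.6 CPM (12.4 to 33.6). The highest value of all was in a trained TG female and the lowest in a sedentary nTG male, yet each pair of groups overlapped. Per2 rose with training by 0.58 ± 0.17 (log2, SE, edgeR adjusted p = 0.0319), and its genotype difference was 0.34 ± 0.17 (adjusted p = 0.096).

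Per3 had medians of 11.4 CPM (9.31 to 25.9) and 14.5 CPM (12.04 to 31.4) in sedentary and trained nTG males, and of 15.2 CPM (8.07 to 33.7) and 23.96 CPM (11.2 to 32.1) in TG males. In females they were 13.3 CPM (8.15 to 25.9) and 19.5 CPM (9.44 to 32.6) in nTG, and 15.04 CPM (11.1 to 21.2) and 25.1 CPM (17.9 to 30.4) in TG hearts. All ranges overlapped, and the training rise was 0.43 ± 0.13 (log2, SE, edgeR adjusted p = 0.0464). Per1, a PER gene that also answers directly to glucocorticoids and cAMP, ran from 16.9 to 108.3 CPM over all libraries. Its medians lay between 36.3 CPM in sedentary nTG females and 61.6 CPM in trained TG females, and neither training (0.26 ± 0.13, adjusted p = 0.275) nor genotype (0.21 ± 0.13, adjusted p = 0.212) passed the test.

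Dbp and Tef encode PAR bZIP factors that read the E-box drive out into D-box genes, and of the 10 genes Dbp had the widest range, from 10.96 to 208.0 CPM, or 18.98 times. Dbp (ENSMUSG00000059824) lies at chr7:45705088-45710203 and Tef (ENSMUSG00000022389) at chr15:81802421-81826863. Dbp's medians were 51.6 CPM (14.9 to 156.9) and 60.8 CPM (29.4 to 146.7) in sedentary and trained nTG males, and 85.2 CPM (29.5 to 168.7) and 107.8 CPM (37.1 to 163.1) in TG males. In females they were 52.9 CPM (10.96 to 141.4) and 98.5 CPM (19.1 to 208.0) in nTG, and 66.6 CPM (56.03 to 126.1) and 113.5 CPM (74.1 to 148.2) in TG hearts. Trained medians were above sedentary ones in each stratum with wide overlap, and the differences of 0.45 ± 0.21 for training (log2, SE, edgeR adjusted p = 0.204) and 0.34 ± 0.21 for genotype (adjusted p = 0.198) did not pass. Tef spread less, from 63.9 to 181.2 CPM, and rose with training by 0.32 ± 0.08 (adjusted p = 0.0223). Its medians were 92.3 and 113.7 CPM in sedentary and trained nTG males, 113.5 and 131.4 CPM in TG males, 92.0 and 125.9 CPM in nTG females and 93.9 and 130.2 CPM in TG females, again with overlap in each stratum.

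Of the REV-ERB genes, Nr1d2 (ENSMUSG00000021775, chr14:18204054-18239127) was called for training and genotype and Nr1d1 (ENSMUSG00000020889, chr11:98767932-98775333) for neither. The difference between them was not tested. Nr1d2 had medians of 65.0 CPM (50.5 to 90.9) and 71.2 CPM (57.4 to 99.9) in sedentary and trained nTG males, and of 80.1 CPM (50.2 to 96.4) and 102.5 CPM (62.4 to 117.2) in TG males. In females they were 66.4 CPM (46.8 to 97.1) and 96.4 CPM (48.6 to 113.5) in nTG, and 83.9 CPM (72.9 to 97.5) and 90.9 CPM (74.5 to 113.1) in TG hearts. These ranges overlapped too. Nr1d2 rose with training by 0.27 ± 0.08 (log2, SE, edgeR adjusted p = 0.0284) and was higher in TG hearts by 0.19 ± 0.08 (adjusted p = 0.0432). Nr1d1 ranged from 66.9 to 203.7 CPM, with medians between 105.8 CPM in sedentary nTG males and 161.0 CPM in sedentary TG females. Its training difference of 0.04 ± 0.08 (adjusted p = 0.826) was the closest to 0 of the 10, and its genotype difference was 0.14 ± 0.08 (adjusted p = 0.14). In GENCODE M21 the end of Nr1d1 shares 1075 bases with Thra and Dbp shares 737 bases with Sphk2, both on the opposite strand, and Per3 lies within Camta1 on the same strand. Clock shares 459 bases with Ube2n-ps1 and 4176 bases with Gm43658, both on the same strand and in the gene table. Whether counting used strand is not given in the sources used here, so reads of Nr1d1 and Dbp may include some of their neighbours'. For Per3 and Clock, whose neighbours lie on the same strand, this may be so with either setting.

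The mean training comparison called 5 of the 10 genes, 4 higher (Per2, Per3, Tef, Nr1d2) and 1 lower (Npas2), where 3.98% of all 16913 genes were called. The mean genotype comparison called 2 of the 10, Arntl lower and Nr1d2 higher, against 39% of all genes, so the count for genotype was below the background share. No gene of the 10 was called between the sexes (16.6% of all genes), where the difference of the largest size was 0.29 ± 0.17 for Per2, higher in females. None passed an unadjusted p of 0.05 in edgeR, and DESeq2 and voom called 0. Without each library in turn, the call of Per3 for training was lost in 41 of 64 fits (adjusted p up to 0.0722) and that of Nr1d2 for genotype in 27 of 64 (up to 0.0712). The calls of Tef for training and of Arntl for genotype held in all 64. Per2 lost its call without replicate 3 of trained TG females, replicate 4 of trained nTG males or replicate 1 of trained TG males (0.0503 to 0.0573). Npas2 (0.0501) and Nr1d2 (0.052) lost theirs for training without replicate 6 of trained TG females.

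No single stratum reached a call. For training, 0 of 10 genes were called in nTG males, in TG males, in nTG females and in TG females, where 0%, 18%, 0.148% and 0% of all genes were. Past an unadjusted p of 0.05 in edgeR were 2, 1, 3 and 4 of the clock genes in that order. All genes past it numbered 999, 5401, 2406 and 606 of 16913. The clock gene count was thus below the share of all genes in TG males and above it in the other 3 strata. These counts were not tested. In nTG males and TG females DESeq2 called 4 and 0 genes and limma voom 1 and 3. DESeq2 and voom each called 1 clock gene in TG males and 0 in the other 3 strata. In TG males both called more of all genes than the 18% of edgeR. Nr1d2 in TG males came nearest, at 0.38 ± 0.14 (log2, SE, edgeR adjusted p = 0.0538). For genotype, 0 of 10 were called among sedentary males (20.6% of all genes), trained males (14%), sedentary females (4.37%) or trained females (14.8%). At an unadjusted p of 0.05 in edgeR, 1, 0, 1 and 0 passed, where 5494, 4586, 2767 and 4872 of 16913 genes did. Each of these clock gene counts was below the share of all genes. DESeq2 called 0 of 10 in each stratum, where it called more of all genes than edgeR. Voom called 1 clock gene, in sedentary females, where it called 1269 of all genes. The interaction of genotype with training, which asks whether training differed between TG and nTG hearts, called 0 of 10 clock genes and 0% of all genes in males and 0 of 10 and 0% in females. Unadjusted, 2503 and 1093 genes passed 0.05, none of them among the 10. DESeq2 called 13 genes for the interaction in males and 0 in females, voom 300 and 0, and neither called a clock gene. In no comparison of 2 groups did any of the 10 genes separate the groups without overlap. How many of all genes did so was not computed, so this describes the ranges only and is not particular to the clock genes.

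**Figure D2:**
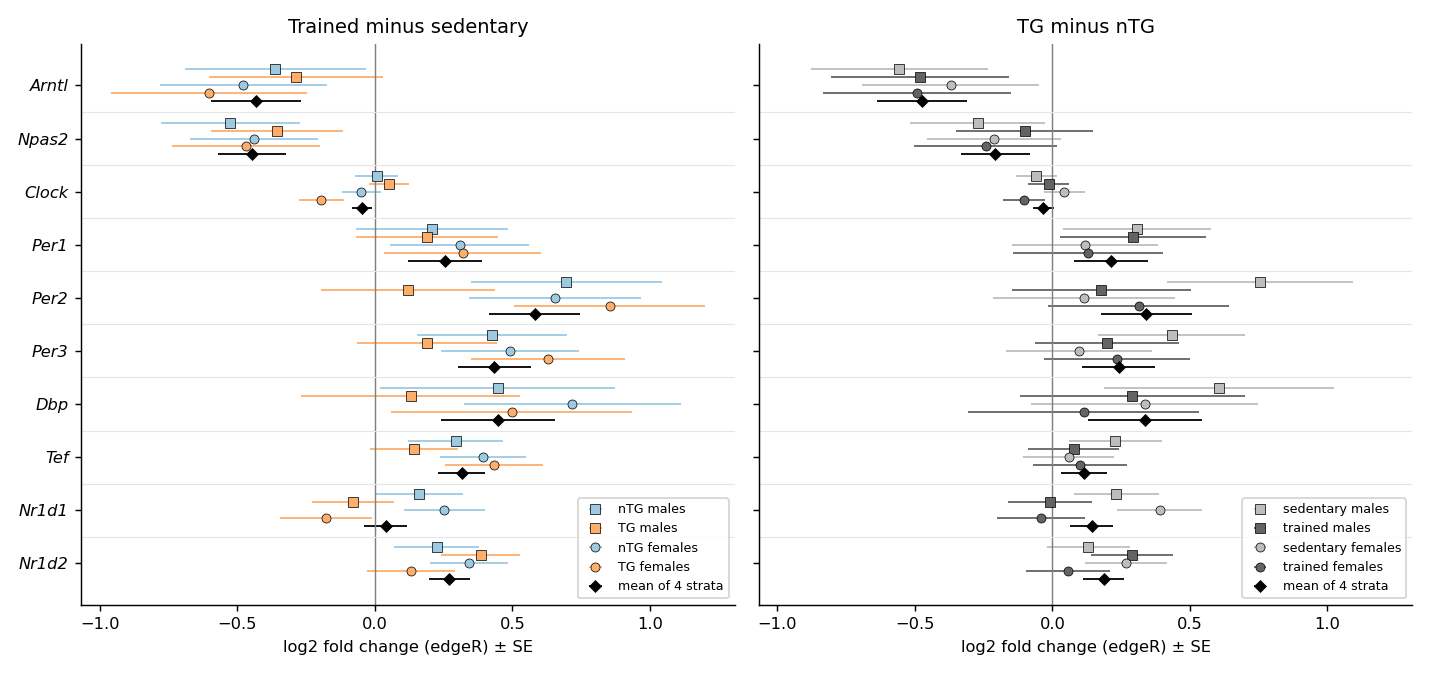
Log2 fold change ± SE of each clock gene from the edgeR model, for trained minus sedentary hearts (left) and TG minus nTG hearts (right), with squares for males, circles for females and black diamonds for the mean of the 4 strata. For training, Arntl and Npas2 lie below 0 and the Per genes, Dbp, Tef and Nr1d2 above 0 in each stratum, while Clock and Nr1d1 lie near 0 in the mean (-0.05 and 0.04).

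The 10 genes varied together from mouse to mouse within groups. After each gene's log2 CPM was centred within its group, a single axis (the first singular vector) held 87% of the variance of the 10 genes, and the next axis, led by Per1, held 5.22%. The loadings on the common axis were -0.42 for Arntl, -0.29 for Npas2 and -0.08 for Clock, and 0.54 for Dbp, 0.41 for Per2, 0.32 for Per3, 0.28 for Per1, 0.20 for Tef, 0.18 for Nr1d2 and 0.16 for Nr1d1. The activators thus lay at one end and their targets at the other. The axis was nearly the same when taken from males alone (89.6% of variance) or females alone (83.9%), with a cosine of 0.999 to the common axis in both. Taken inside each group by itself, it held from 67.5% (sedentary TG females) to 92.6% (sedentary TG males), with a cosine of 0.913 to 0.995.

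Against Arntl, over 64 libraries and within groups, Npas2 (r = 0.929) and Clock (r = 0.841) moved the same way, while Per3 (r = -0.936), Per2 (r = -0.918), Tef (r = -0.915), Dbp (r = -0.905), Nr1d2 (r = -0.882), Nr1d1 (r = -0.729) and Per1 (r = -0.688) moved the opposite way. The Spearman rho ranged from 0.812 to 0.926 for the activators and from -0.719 to -0.938 for the others. Each of these 9 relations had a permutation p of 1e-05, the smallest that 100000 resamples can give, before and after Benjamini-Hochberg adjustment, for r and for rho. Without the 2 libraries farthest from the median of Arntl, r stayed between 0.834 and 0.919 for the activators and between -0.711 and -0.933 for the others, and in males and females alone every r kept its sign, from -0.617 for Per1 in females to -0.967 for Per3 in males among the genes opposite to Arntl. Nr1d1 and Per1 had the weakest relations.

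Individual hearts of 1 group lay at opposite ends of this range. In sedentary nTG females, replicate 8 had 29.8 CPM of Arntl and 10.96 CPM of Dbp, the highest and lowest of all 64 libraries, while replicate 6 of that group had 8.33 CPM of Arntl. Replicate 3 of the trained TG females had the lowest Arntl (3.83 CPM) and Clock (52.3 CPM) and the highest Per2 (33.6 CPM) and Tef (181.2 CPM). Mice of the same sex, genotype and training thus differed widely in these genes. The log2 ratio of Dbp to Arntl ran from -1.44 to 4.35 inside the sedentary nTG females and from -0.47 to 5.53 inside the trained nTG females.

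**Figure D3:**
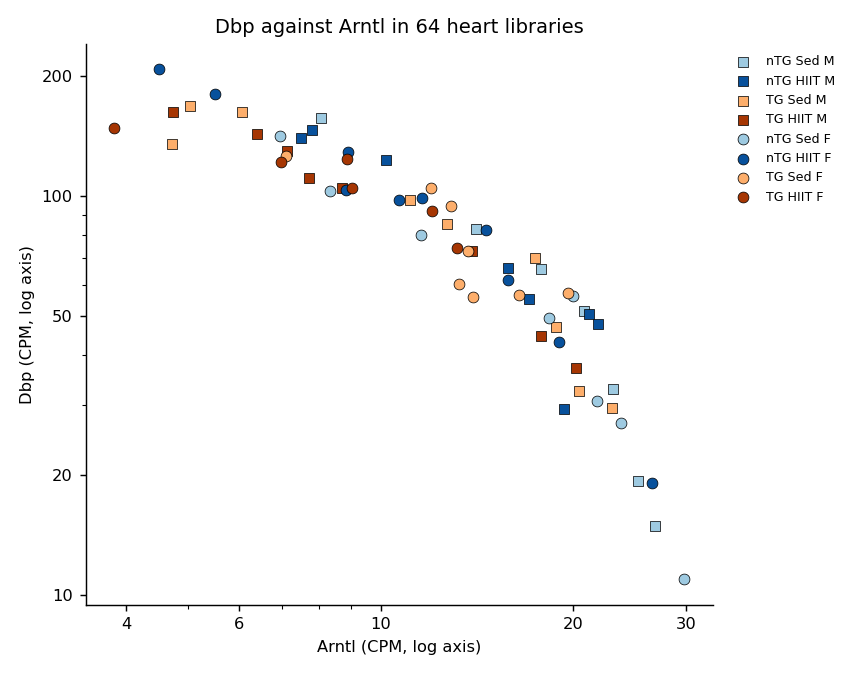
Dbp against Arntl in CPM on log axes, with 1 point per library, squares for males and circles for females, coloured by genotype and training. The libraries form 1 band from 29.8 CPM Arntl and 10.96 CPM Dbp down to the lowest Arntl at 3.83 CPM, and each group is spread along the band.

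Differences by training and by genotype were then set against this axis, which held 87% of the variance between mice of 1 group and so gives the share to read them against. The mean training difference of the 10 genes had a length of 1.26 (log2 units) and a cosine of 0.974 with the within-group axis, so that 94.9% of its squared length lay on it. The mean genotype difference had a length of 0.95, a cosine of 0.989 and 97.8%. For training, the difference along the axis was 1.26 in nTG males (93.7% of its squared length), 0.66 in TG males (71.7%), 1.57 in nTG females (97.5%) and 1.43 in TG females (84.5%). For genotype it was 1.37 (96.6%) and 0.76 (83.1%) among sedentary and trained males, and 0.88 (79.6%) and 0.74 (93.4%) among sedentary and trained females. Females minus males gave 0.38 (62.6%). The interaction of genotype with training gave -0.60 in males (67.2%) and -0.15 in females (5.12%). The shares thus lay above 87% in some comparisons and below it in others. These comparisons share groups and are not independent of one another, and the values are descriptions without a test.

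Scores on the axis, with 0 at the mean of all libraries and higher scores for more Dbp and Per and less Arntl, had an SD within groups of 0.85 (sedentary TG females) to 1.97 (sedentary TG males). Median scores were -1.42 in sedentary and -0.67 in trained nTG males, 0.17 and 1.42 in TG males, -1.34 and 1.02 in nTG females, and -0.37 and 1.38 in TG females. The score ranges overlapped between all groups. Sedentary nTG females ran from -3.88 to 1.60 and trained TG females from -0.02 to 2.87. The hour of sampling is not in the labels, and its part in these differences was not tested. The number that the labels give each library (males 1 to 32, females 33 to 64) had no relation past the test with any of the 10 genes within groups: of 20 relations, 10 in each sex, r lay between -0.308 (Tef in females) and 0.212 (Arntl in females), with adjusted permutation p of 0.849 or more for r and of 0.695 or more for rho.

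**Figure D4:**
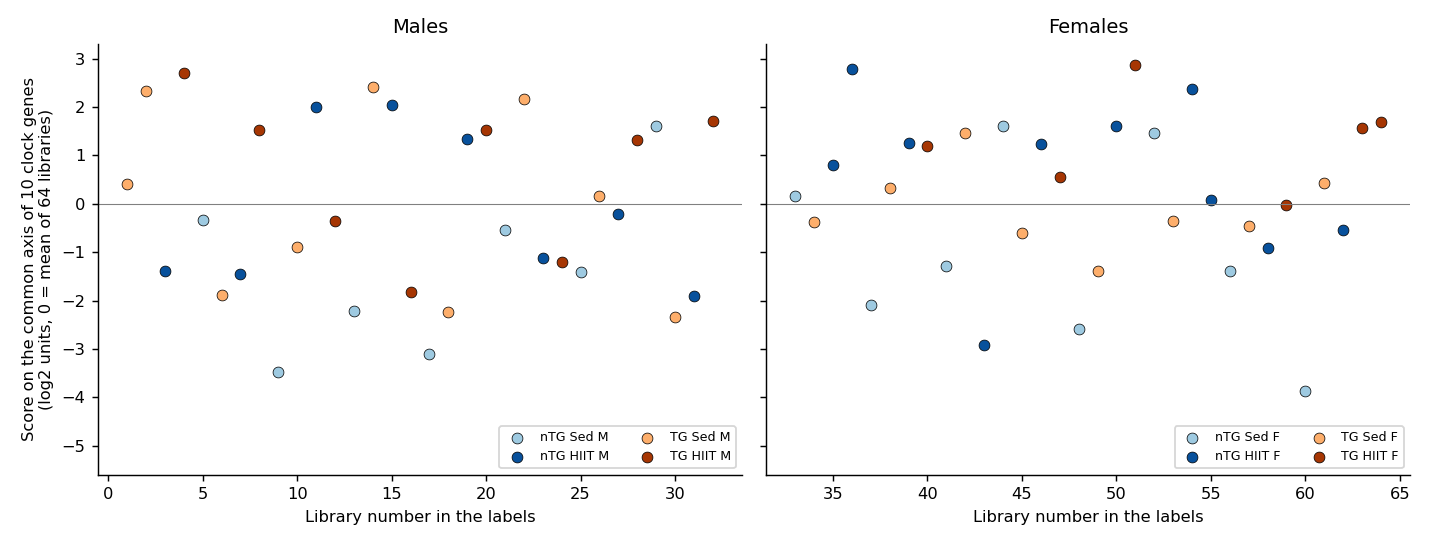
Score of each library on the common axis of the 10 clock genes (log2 units, 0 at the mean of 64 libraries) against its number in the labels, in males (left) and females (right), coloured by genotype and training. Libraries of each group lie at many heights, from -3.88 to 2.87 in females, with r to the library number from -0.308 to 0.212 for the 10 genes.

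When the score that the other 9 genes gave each library was added to the model as a covariate, a setting chosen after the data were seen, 0 of the 10 genes were called in the mean training comparison (3.8% of all genes with the axis as covariate) and 0 in the mean genotype comparison (38.3%). The training difference of Per2 became 0.15, that of Npas2 -0.14, Tef 0.08, Per3 0.07 and Nr1d2 0.05, and the genotype difference of Arntl became -0.10 and that of Nr1d2 0.03. After this adjustment 1 gene was called for training in TG males (19.1% of all genes), Nr1d2 at 0.28 ± 0.06 (log2, SE, edgeR adjusted p = 0.00186). Between the sexes 2 were called (17% of all genes): Per2 was higher in females by 0.24 ± 0.06 (adjusted p = 0.00213), and Tef was lower by -0.15 ± 0.03 (adjusted p = 0.00105). Because the other 9 genes correlate with each gene within groups and their group differences lie along the same axis, losing the calls was largely set by the construction of this covariate. The shares of all genes in this paragraph come from a fit with the score of all 10 genes as the covariate. That fit left 2939 of the 3036 genes called for training in TG males and 419 of the 673 called in the mean training comparison.

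Of 16903 genes outside the 10, 556 (3.29%) followed the axis within groups, 273 rising and 283 falling with it. Of 21 other genes of the loop, 9 followed it, 6 rising and 3 falling. Ciart, a repressor of the ARNTL activator, rose by 0.53 ± 0.02 (log2 per unit of the axis, SE, edgeR adjusted p = 6.93e-27), Bhlhe41 by 0.17 ± 0.01 (2.61e-18) and Hlf, the third PAR bZIP gene, by 0.19 ± 0.02 (2.71e-14), and so did the cryptochrome gene Cry2 by 0.13 ± 0.01 (1.35e-14). The other 12 loop genes, most of which act on clock proteins rather than as transcription factors, did not pass. Of 12 genes listed as clock outputs in heart, 6 followed the axis, 5 rising (among them Usp2 at 0.17 ± 0.01, Tcap at 0.20 ± 0.02 and Klf15 at 0.10 ± 0.01) and 1 falling, Cdkn1a at -0.16 ± 0.02.

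The other loop genes were called about as often as all genes. For training over the 4 strata, where 3.98% of all genes were called, 1 of 21 rose, Hlf by 0.35 ± 0.09 (log2, SE, edgeR adjusted p = 0.0171), and none fell; the median was 0.03 against 0.00 over all genes. With genotype, where 39% of all genes were called, 8 of 21 changed, 3 higher and 5 lower, among them Btrc at -0.12 ± 0.02 (1.96e-05) and the E-box repressor gene Bhlhe40 at 0.37 ± 0.07 (2.96e-05). Of the 12 outputs, 4 were called for training: Pik3r1 rose by 0.22 ± 0.04 (0.000348), Usp2 by 0.23 ± 0.07 (0.0475) and Nampt by 0.15 ± 0.05 (0.0498), and Pdk4, which slows glucose oxidation, fell by 0.45 ± 0.13 (0.0363). The calls of Usp2 and Nampt were lost in 44 and 46 of 64 fits that left out 1 library (adjusted p up to 0.0749 and 0.0876) and with median-of-ratios scaling (0.0519 and 0.053). That of Pdk4 was lost in 10 of 64 (up to 0.0706). With genotype 6 of 12 were called, against 39% of all genes, and all 6 were lower, led by Kcnip2, a subunit of the transient outward potassium channel, at -0.67 ± 0.05 (2.98e-17), Dgat2 at -0.40 ± 0.03 (4.9e-15) and Kcnh2 at -0.32 ± 0.03 (3.53e-12). Their slopes on the clock axis were 0.009, 0.031 and 0.032, none past the threshold. Of the 6 lower genes, Klf15 and Por, named here after their values were seen, did follow the axis, with slopes of 0.10 ± 0.01 (4.65e-07) and 0.04 ± 0.01 (0.0141). Both slopes were positive, and TG hearts scored higher on the axis, by 0.94 in the mean genotype difference. The genotype differences of Klf15 (-0.17 ± 0.06) and Por (-0.19 ± 0.03) thus ran opposite to their slopes. Between the sexes, where 16.6% of all genes were called, 3 of 21 loop genes were lower in females, among them Btrc at -0.08 ± 0.02 (0.00529), and 2 of 12 outputs differed, 1 in each direction. Nampt was lower in females by -0.15 ± 0.05 (0.0145), a call held in all 64 fits without 1 library. The higher one, Kcnh2 (0.09 ± 0.03, adjusted p = 0.0442), lost its call in 24 of 64 fits without 1 library (up to 0.0688).

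Glucocorticoid and heat signals can reset peripheral clocks, so target genes of both were read beside the loop. Of all genes, 3.98% were called for training, 39% for genotype and 16.6% between the sexes, and 3.29% followed the clock axis. With training 1 of 8 glucocorticoid targets rose, Fkbp5 by 0.26 ± 0.07 (log2, SE, edgeR adjusted p = 0.0264), a call lost without replicate 4 of sedentary nTG females, and none fell. Of the same 8, 1 was lower in TG hearts (Mt1, -0.19 ± 0.05, adjusted p = 0.000944). Another was higher in females (Klf9, 0.13 ± 0.05, adjusted p = 0.0399, lost in 15 of 64 fits without 1 library). In all, 4 of 8 targets followed the clock axis, all rising, led by Klf9 at 0.09 ± 0.01 per unit (1.71e-10). Of 7 temperature-responsive genes none was called for training, 2 were higher in TG hearts (Hspa1b by 0.50 ± 0.12, Hspa1a by 0.44 ± 0.12), and 5 differed between the sexes. The cold-induced Rbm3 was lower in females by -0.48 ± 0.06 (3.25e-08) and Cirbp by -0.23 ± 0.06 (0.00477). The heat-shock genes Hsph1 and Dnajb1 were higher in females by 0.31 ± 0.06 (4.34e-05) and 0.21 ± 0.06 (0.0174). Males and females carry separate blocks of library numbers. Any sex difference given here therefore cannot be told apart from a difference between those blocks. On the clock axis Cirbp rose (0.08 ± 0.02, adjusted p = 0.000817) and Hsp90aa1 fell (-0.06 ± 0.01, adjusted p = 0.00631).

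Some cell type markers moved with genotype, for which 39% of all genes were called. Of 5 heart muscle markers 1 was higher and 3 were lower in TG hearts, of 4 atrial markers 1 was higher, of 5 endothelial markers 2 were lower, of 5 red blood cell markers 3 were lower, and of 2 measured fat markers 1 was lower. Over the strata, 5 of 5 macrophage and 5 of 5 fibroblast markers were higher in TG hearts. The macrophage sum ranged from 128 to 237 CPM in nTG and 165 to 298 CPM in TG libraries. The fibroblast sum ranged from 394 to 750 and from 490 to 964 CPM. With training (3.98% of all genes called), 1 macrophage, 1 fibroblast and 2 endothelial markers of 5 each were lower over the strata. Between the sexes (16.6%) 2 of 5 fibroblast markers were higher and 3 of 5 endothelial markers lower in females. Among trained males (14%), 5 of 5 red blood cell markers were lower in TG than in nTG hearts. In TG males (18%) 3 of 5 macrophage and 2 of 5 fibroblast markers were lower with training. All 5 red blood cell markers were too. Their sum had a median of 384 CPM (260 to 554) in trained and 547 CPM (290 to 4600) in sedentary hearts. The part of these markers in the clock gene values was not tested. In whole heart fewer cells of a type and less RNA per cell cannot be told apart.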

How the data were processed

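Total RNA of 64 hearts was depleted of ribosomal RNA and sequenced, per the labels' protocols. The deposited gene table holds whole-number counts per Ensembl gene, and the deposited lncRNA table holds estimated counts, which were used for the join of columns only. The submitters' processing notes name cutadapt 2.3, FastQC 0.11.8, MultiQC 1.7, STAR 2.7.8a and RSEM 1.3.3 with GRCm38 (mm10); their roles, the annotation, strand setting and gene filter are not given in the sources used here. Of 16913 gene IDs, 16887 matched GENCODE M21.

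Columns were joined on centred log2 CPM of autosomal transcripts with a mean of at least 20 counts. Differences were tested with edgeR 4.0.16 in R 4.3.3 (quasi-likelihood F test, TMM scaling, filterByExpr, 8 group means), with p-values adjusted over all genes by Benjamini-Hochberg and a threshold of 0.05, for 13 comparisons. Log2 CPM used a prior count of 2, and correlations used 100000 two-sided permutations within groups. DESeq2 1.42.0 and limma 3.58.1 were alternatives, with other scalings, filters, covariates and each library left out. The 10 genes and all lists were chosen with earlier results of these data known; the text names all 10, up to 4 genes of a list with the smallest p in a comparison, and the genes most like Arntl (5 at each end) and Dbp (5); some listed genes are counted but not reported here by name. P-values measure the spread between the mice the labels call biological replicates.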

Additional observations from a re-analysis of the deposited data

Results flagged for a closer look

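Per3 in replicate 7 of the sedentary nTG males stood apart from its group at 25.93 CPM, where the other 6 hearts had 9.31 to 15.4 CPM. In the same heart Arntl was 8.06 CPM, the lowest of its group. In all, 88 sets of values (10 genes and the axis score in 8 groups) were examined for a library far from the rest; chance flags about 1 in 20, or 4.4 sets, and 1 was found.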

How the results depend on the processing

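With gene columns read by their own names, 0 of 10 clock genes were called for genotype over the strata and 2 for training, neither among the 5 called with joined columns, and 87.3% of variance lay on the axis; the by-name calls of all genes were 0 in 4 genotype comparisons, TG males and the genotype and sex means, 132 and 42 for training in nTG males and females, and 2857 for the training mean. By name, the signs turned for genotype in Mt1 (0.028), Btrc (0.019), Bhlhe40 (-0.004), Gsk3b (0.011) and Hspa1a (-0.005), for training in Pik3r1 (-0.12) and Nampt (-0.013), and for sex in Nampt (0.006), Klf9 (-0.029), Hsph1 (-0.005) and Cirbp (0.023). Clock genes called went to 1 for training in TG males under DESeq2, limma voom, a minimum of 100 counts and the axis covariate. Under voom they went to 1 in sedentary females (genotype) and to 4 for the genotype mean. For that mean edgeR called 39% of all genes and voom called more, so 4 of 10 was about the background share. With the axis covariate they went to 0 for the genotype mean, 0 for the training mean and 2 for sex. With library number as a covariate Per3 missed the threshold for training (adjusted p = 0.0505). Without 1 library at a time, 0 to 1 were called for genotype in sedentary males (1 without replicate 7 of nTG) and sedentary females (1 without replicate 4 of nTG), 0 to 1 for training in TG males, 1 to 3 for the genotype mean and 2 to 5 for the training mean. All genes called for training in nTG females, 25, became 131 (DESeq2), 100 (voom), 13 (median-of-ratios scaling), 5 (at least 100 counts), 0 (those groups alone) and 4 (axis), and ran from 0 to 62 without 1 library; for genotype in sedentary females, 739 became 1269 (voom) and 367 (those groups alone); the training mean of 673 became 1684 (voom), and ran from 404 to 1388 without 1 library. In TG males the 3036 training calls fell to 1702 without replicate 7 of the trained group.

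Whether replicate numbers pair the mice was not tested. Between groups, 205 pairs of libraries with the same number had a median correlation of 0.01, with 51 over 0.1. The 1582 pairs with different numbers had a median of 0, with 296 over 0.1. With the replicate block, 2 clock genes were called for the genotype mean, 5 for the training mean and 0 elsewhere, Pdk4 lost its training call (-0.40, adjusted p = 0.0585) and Kcnh2 its sex call (0.09, adjusted p = 0.0542), and genes called for training in nTG males and females were 1 and 3. The lowest count behind any clock gene value was 175, for Npas2, whose SD within groups was 0.52 on the log2 scale.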

Other observations

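The genes outside the 10 most like Arntl from mouse to mouse, by Pearson r of log2 CPM centred within groups over 64 libraries among genes with a mean of at least 50 counts, were Fam124b (r = 0.913), Ice1 (0.817), Leo1 (0.808), Unc119b (0.767) and Adamts4 (0.761). At the opposite end stood Usp2 (-0.908), a ubiquitin-specific protease gene, Ciart (-0.886), Bhlhe41 (-0.876), Tspan4 (-0.868) and Hlf (-0.853). Those most like Dbp were Ciart (0.925), Tcap (0.914), which encodes the titin cap protein telethonin of the cardiac Z-disc, Usp2 (0.886), Bhlhe41 (0.88) and Bhlhe40 (0.823). These are descriptions across libraries that share their scaling, with no test.

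In TG males, where 18% of all genes were called for training, 3 of 21 other loop genes rose, among them the deacetylase gene Sirt1 by 0.26 ± 0.07 (log2, SE, edgeR adjusted p = 0.00772) and Rora, which activates Arntl, by 0.18 ± 0.05 (0.0121). Of 12 outputs 2 rose there, Pik3r1 by 0.31 ± 0.07 (0.00202) and Nampt, the rate-limiting enzyme of NAD salvage, by 0.36 ± 0.09 (0.00419). The slope of Nampt on the clock axis was 0.006 ± 0.015.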
